A study of Mus musculus with 21 samples.

Results

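The genes described here are 9 markers of neurogenesis and immature neurons, Dcx, Sox11, Sox4, Igfbpl1, Neurod1, Draxin, Dpysl3, Tubb2b and Stmn1, out of 24411 genes in tables of 21 hippocampal libraries from male wild-type mice. They were chosen by name, as known markers of newly formed neurons, and each was found in the tables of both experiments. Recipients in the transfer were B6.SJL-Ptprca Pepcb/BoyJ mice of 4 months, and every one of them had been given a CD8a antibody on day -11 and day -7, which depletes its own CD8+ T cells. CD8+ T cells purified from spleen and blood of C57BL/6J donors were then injected through the tail vein. Donors were 22 to 28 months old for the group called aged T recipients (n = 5) and 3 to 4 months old for young T recipients (n = 6). The depletion used mice of 22 to 24 months, of a strain not given in the sources used here, injected every 4 days with the CD8a antibody (n = 5) or with its isotype control, a rat IgG2b (n = 5). One comparison thus asked how a young hippocampus responds to aged CD8+ T cells, and the other how an aged hippocampus responds to their removal. All mice were perfused before the hippocampus of 1 hemisphere was taken, so each library mixes the dentate gyrus with the CA fields and any adjoining tissue.

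New granule neurons arise in the adult dentate gyrus from radial glia-like stem cells, which pass through dividing progenitors and a stage of migrating, axon-growing neuroblasts. Transcription factors of the SoxC group (Sox4 and Sox11) and the basic helix-loop-helix factor Neurod1 switch on neuronal genes in these cells. Doublecortin, the product of Dcx, binds microtubules and is the usual marker of the neuroblast stage, and it acts beside the beta-tubulin Tubb2b, the tubulin-binding protein stathmin (Stmn1) and the collapsin response mediator Dpysl3. Igfbpl1 and Draxin encode secreted proteins, the first related to insulin-like growth factor binding proteins and the second a repulsive axon guidance factor. Production of new granule neurons is known to decline with age in the mouse hippocampus.

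Library totals lay between 9957822 and 15055422 reads. No pair of replicates within a group was a near-copy, since the smallest chi-square per degree of freedom between any pair within a group was 7.11. CD8a antibody replicates 2 and 5 stood apart from the rest of their group and from each other. By that measure replicates 1, 3 and 4 lay 7.73 to 10.1 from one another, replicate 2 lay 38.7 to 41.9 from them, replicate 5 lay 44.3 to 52.1 from them, and the distance between replicates 2 and 5 was 80.7. The labels do not say that each library is 1 mouse, so p-values measure the spread between these samples. In whole hippocampus, fewer immature neurons and less RNA per immature neuron cannot be told apart. Nor can reads of these genes from immature neurons be told apart from reads of other cells that express them.

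The 9 genes sit on 6 chromosomes of the GRCm38 (mm10) build and all are protein-coding in GENCODE M21. Dcx has 7 exons on chromosome X (143855842 to 143933311). Sox11 (chromosome 12, 27334264 to 27342574) and Sox4 (chromosome 13, 28948919 to 28953713) are each a single exon. Neurod1 has 2 exons on chromosome 2 (79452521 to 79456751). Igfbpl1 (45809468 to 45826923), Draxin (148098437 to 148130698) and Stmn1 (134468320 to 134473843) lie on chromosome 4, with 5, 7 and 5 exons. Dpysl3 (14 exons, 43320984 to 43438286) lies on chromosome 18 and Tubb2b (4 exons, 34126748 to 34130466) on chromosome 13. The exon of Sox4 shares 2616 bases with an antisense RNA on the opposite strand. Library preparation was strand-specific per the labels, but how reads were counted is not stated, so reads of that pair may not have been separated.

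Sequence identity with a neighbour in its gene family limits the value of Tubb2b. Over 1338 coding bases, Tubb2b and its tandem relative Tubb2a differed at 47, an identity of 96.5%, and their longest identical stretch ran for 551 bases. Of the 50-base windows of the Tubb2b transcript, 39.3% also occur in another transcript. The 60 coding bases with the most differences, at positions 112 to 171 of the coding sequence in GENCODE M21, hold 10 of them. They are printed below to show what a read must cover to tell the genes apart, with differing bases in capitals.

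Tubb2b: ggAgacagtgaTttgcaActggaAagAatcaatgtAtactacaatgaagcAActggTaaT

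Tubb2a: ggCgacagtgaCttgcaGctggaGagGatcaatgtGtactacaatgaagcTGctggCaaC

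In Stmn1, 36.5% of such windows also occur in other transcripts, chiefly a Stmn1 pseudogene, and for Neurod1 the share was 5.71%. It was 0.255% for Dcx, 0.0971% for Draxin and 0% for the other 4 genes. The values of Tubb2b and Stmn1 are therefore uncertain to the extent that counting split such reads.

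Upstream sequence was read from RefSeq (GRCm38.p6) for Dcx, Sox11, Sox4, Neurod1 and Draxin. The 250 bases before each annotated start were searched on both strands for the SOX-type letters ACAAAG and ACAATG and for the E-box CAGATG, the core bound by factors such as Neurod1. These letters occur in 16.5%, 10.7% and 14.4% of 32851 mouse promoter windows. ACAAAG was present 2 times before Draxin and 1 time before 1 of the 2 starts of Dcx, and the other windows held none of the 3 motifs. The Dcx match lies in the 187 bases of its window that fall inside the Dcx gene of GENCODE M21. The stretch that holds both matches of Draxin, the only window of the 5 genes with more than 1, is at chr4:148130872-148130930 on the minus strand. Its matches, in capitals and read here as the reverse complement, begin 212 and 199 bases before the start.

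Draxin: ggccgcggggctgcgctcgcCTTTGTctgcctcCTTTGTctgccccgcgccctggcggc

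None of the 9 genes passed the test in either experiment. For every gene tested the values of the groups overlapped, which is a description only, since the share over all genes was not counted. In the transfer, 9 of 9 genes were tested and 0 were called by limma at an adjusted p under 0.05, against 0% of 14162 genes. An unadjusted p under 0.05 was reached by 1 of the 9, Igfbpl1, against a background of 8.25% of all genes tested. In the depletion, 8 of 9 genes were tested, since the mean of Draxin was under 10 normalized counts, and 0 were called against 0.00717% (1 of 13939 genes). There, 1 of the 8, Dpysl3, had an unadjusted p under 0.05, against 8.47% of all genes. Igfbpl1 reached the mean of 10 there only through 1 antibody library. edgeR and DESeq2, run on the recovered reads, also called 0 of the members in both experiments, as did the authors' deposited table. The DESeq2 values of the members were nearly identical to those of that table, so it is not a separate result. The background of DESeq2 was 0% in the transfer and 0.656% in the depletion, and that of edgeR 0% and 0.00717%. By unadjusted p under 0.05, both tools picked Igfbpl1 and Sox11 in the transfer and Igfbpl1 and Dpysl3 in the depletion. In the transfer the unadjusted edgeR p was 0.0129 for Igfbpl1 and 0.0491 for Sox11, and the unadjusted DESeq2 p was 0.00500 and 0.0418. In the depletion the unadjusted edgeR p was 0.0132 for Igfbpl1 and 0.0136 for Dpysl3, and the unadjusted DESeq2 p was 0.00281 and 0.00760. The shares of all genes at that level were 8.88% and 8.97% with edgeR and 8.07% and 8.19% with DESeq2.

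**Figure D1:**
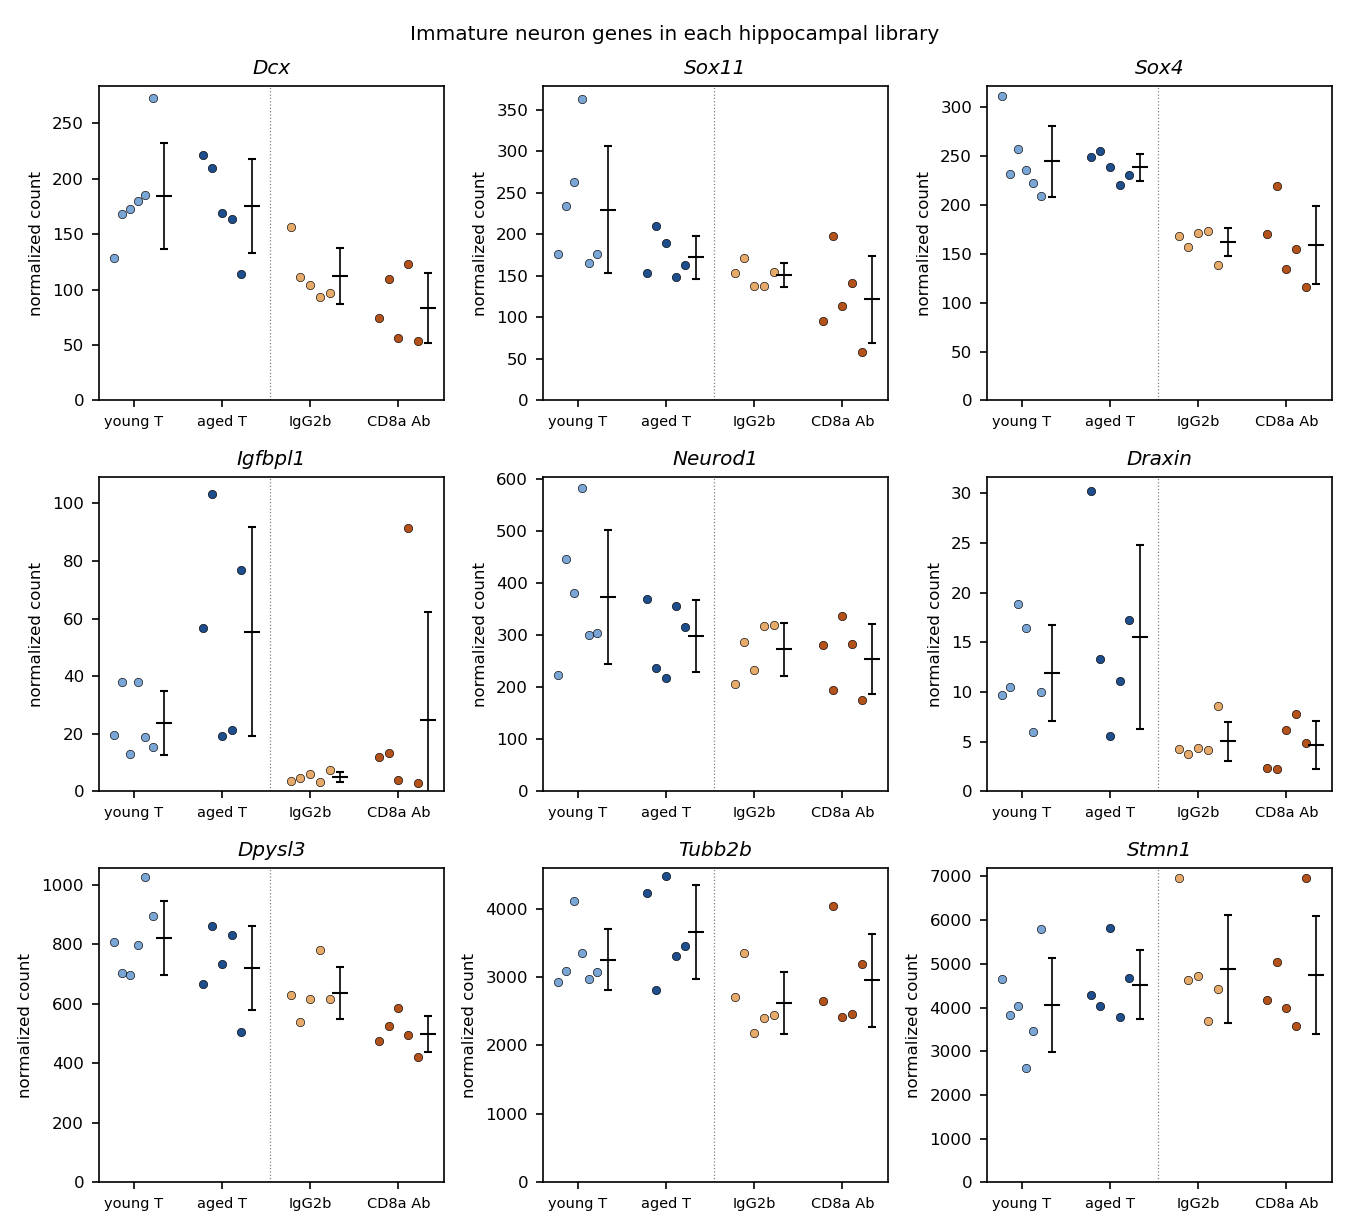
Normalized counts (y axis, from 0) of the 9 genes in every library, by group (x axis), with the mean and SD beside each group; a bar that would reach below 0 is cut there. Transfer and depletion values, left and right of the dotted line, were normalized apart. The values of the compared groups overlap in every panel, a description without a share over all genes beside it. Single libraries stand high for Igfbpl1, such as 103 in aged T recipients and 91.6 with the CD8a antibody.

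Among the 9 genes in the transfer, 4 were higher and 5 lower in aged T recipients, with a median log2 difference of -0.03 beside -0.00 over all genes tested. Among the 8 tested in the depletion, 2 were higher and 6 lower with the CD8a antibody, with a median of -0.09 beside -0.00. Log2 differences are on the scale log2(normalized count + 1), which understates differences of weakly expressed genes such as Draxin. A normalized count is a gene's reads divided by a size factor of the library.

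**Figure D2:**
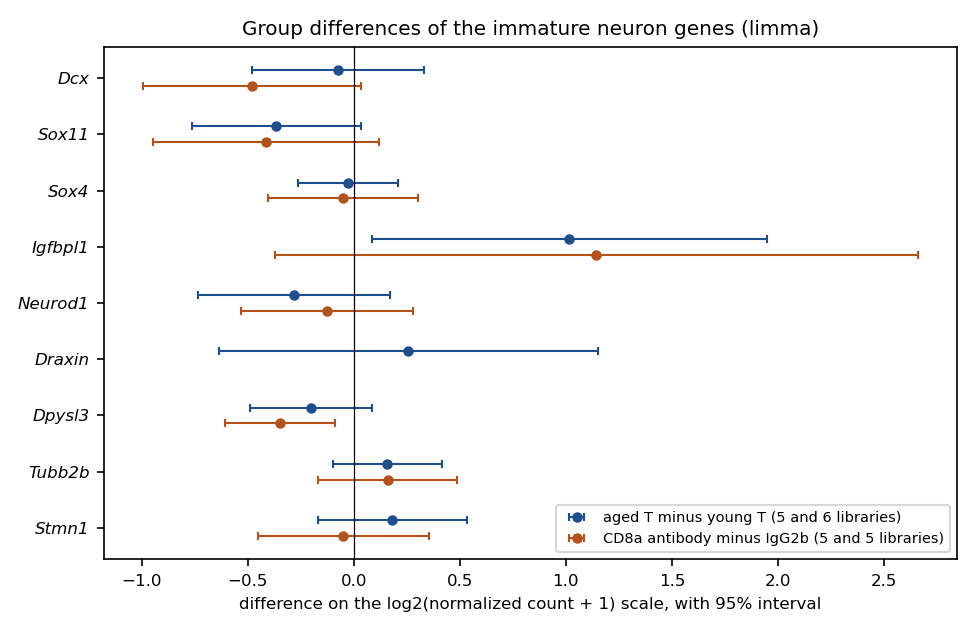
Log2 difference between groups (x axis, log2(normalized count + 1) scale) with its 95% interval for each gene (y axis), blue for aged T minus young T recipients and orange for CD8a antibody minus IgG2b. Intervals exclude 0 only for Igfbpl1 in the transfer (0.08 to 1.95) and Dpysl3 in the depletion (-0.61 to -0.09), before adjustment for the number of genes; Draxin was not tested in the depletion.

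Among the transcription factors in the transfer, Sox11 had the largest difference. Its normalized counts in the 5 aged T recipients were 153, 209, 189, 148 and 163, and in the 6 young T recipients they ran from 166 to 363 with a median of 205. The highest aged T value lay above the young T median, and 3 of the aged T libraries lay below every young T library. The log2 difference was -0.36 (SE 0.19, 95% interval -0.76 to 0.03, limma adjusted p = 0.601), and -0.22 without young T replicate 4. Neurod1, which drives terminal differentiation of granule neurons, was at 370, 237, 217, 357 and 315 in aged T recipients and between 224 and 583 (median 342) in young T recipients. Its difference was -0.28 (SE 0.21, interval -0.74 to 0.17, limma adjusted p = 0.702), and 2 of 5 aged T libraries stood above the young T median. Without young T replicate 4 the difference of Neurod1 was -0.14, and without aged T replicate 3 it was -0.18. Sox4 was the least variable of the 9 genes in aged T recipients, with 249, 255, 239, 220 and 230 (coefficient of variation 5.86%). In young T recipients it ran from 209 to 312 with a median of 234, so that every aged T value fell within the young T range. The log2 difference of Sox4 was -0.03 (SE 0.11, interval -0.26 to 0.21, limma adjusted p = 0.959).

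Dcx, the neuroblast marker, was at 221, 209, 169, 163 and 114 normalized counts in aged T recipients. Young T recipients ran from 128 to 273, with a median of 176. Both groups therefore covered nearly the same range, with the lowest value in aged T replicate 5 and the highest in young T replicate 6. The log2 difference was -0.07 (SE 0.19, interval -0.48 to 0.33, limma adjusted p = 0.931), and its sign turned when either of those libraries was left out (0.07 and 0.05). Dpysl3, of the collapsin response mediator family of growth cones, was at 668, 861, 735, 834 and 506 against 698 to 1027 (median 804). Aged T replicates 5 and 1 lay below every young T library, and the difference was -0.20 (SE 0.14, limma adjusted p = 0.671). Without aged T replicate 5 it was -0.08.

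Tubb2b and Stmn1 were read far more often. Tubb2b was at 4229, 2812, 4477, 3310 and 3459 in aged T recipients and between 2926 and 4109 (median 3081) in young T recipients. Stmn1 was at 4295, 4040, 5822, 3782 and 4681 against 2628 to 5789 (median 3935). In both genes 4 of 5 aged T libraries stood above the young T median. Their log2 differences were 0.16 (SE 0.12, limma adjusted p = 0.705) for Tubb2b and 0.18 (SE 0.17, limma adjusted p = 0.753) for Stmn1. Without aged T replicate 3, the highest library of both genes, they were 0.08 and 0.09. With 1 library left out at a time, Tubb2b ranged up to 0.25 (without aged T replicate 2) and Stmn1 from 0.06 (without young T replicate 4) to 0.29 (without young T replicate 6). In another fit, the trend with transcript length of each library's deviations from the gene means was subtracted first. There Stmn1, whose longest transcript has 1060 bases, was at 0.00, and Dcx (9074 bases) and Sox4 turned to 0.08 and 0.04.

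The secreted factors were read least. Igfbpl1 was at 56.7, 103, 19.1, 21.3 and 77.0 in aged T recipients, and between 12.98 and 38.1 (median 19.1) in young T recipients. Aged T replicates 1, 2 and 5 stood above every young T library, while replicates 3 and 4 lay near the young T median. The log2 difference was 1.02 (SE 0.44, interval 0.08 to 1.95), with an unadjusted limma p of 0.0345 and a limma adjusted p of 0.600. In the authors' deposited table the corresponding log2 value was 1.23 with an adjusted p of 0.441. Draxin was at 30.3, 13.4, 5.63, 11.1 and 17.2 against 5.95 to 18.9 (median 10.3), from as few as 5 reads in a library. Its log2 difference of 0.26 (SE 0.42, limma adjusted p = 0.874) was -0.02 without aged T replicate 1.

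In aged mice, Dcx was lower on average with the CD8a antibody, without passing. The antibody libraries held 74.3, 109, 56.5, 123 and 53.9 normalized counts and the IgG2b libraries 156, 112, 104, 93.0 and 96.6. Antibody replicates 2 and 4 lay within the IgG2b range and the other 3 below it. The log2 difference was -0.48 (SE 0.24, interval -0.99 to 0.04, limma adjusted p = 0.622), and it lay between -0.64 and -0.34 when any 1 library was left out. The lower end, -0.64, is the value without antibody replicate 4, and -0.34 that without antibody replicate 5.

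Dpysl3 had the smallest limma p of the members in this experiment. In contrast, edgeR gave Igfbpl1 a smaller one, as did DESeq2, whose values were nearly those of the authors' deposited table. Dpysl3 was at 474, 525, 585, 495 and 421 with the antibody and at 630, 540, 617, 780 and 617 with IgG2b. All 5 antibody libraries lay below the IgG2b median, and only antibody replicate 3 exceeded the lowest IgG2b library. Mean levels were 500 ± 60.6 against 637 ± 87.8 (SD over 5 libraries a group). The log2 difference was -0.35 (SE 0.12, interval -0.61 to -0.09). The unadjusted limma p was 0.0124 and the limma adjusted p 0.429, and the authors' deposited table gives an adjusted p of 0.242. Over 20 alternative settings the difference lay between -0.41 and -0.27.

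The SoxC factors and Neurod1 differed little from their controls beside the spread. Sox11 was at 95.8, 198, 114, 142 and 58.8 with the antibody and at 154, 171, 138, 137 and 155 with IgG2b. The IgG2b values were close together (coefficient of variation 9.19%), while those with the antibody spread on both sides (43.0%). The log2 difference was -0.41 (SE 0.25, limma adjusted p = 0.681), and -0.18 without antibody replicate 5. Sox4 was at 170, 220, 135, 155 and 116 against 168, 157, 171, 174 and 138, a difference of -0.05 (SE 0.17, limma adjusted p = 0.952). Neurod1 was at 280, 194, 336, 284 and 175 against 207, 287, 233, 319 and 320, a difference of -0.13 (SE 0.19, limma adjusted p = 0.888). Antibody replicate 5 gave the lowest value of Dcx, Sox11, Sox4, Neurod1 and Dpysl3 and the highest of Stmn1. Without it the differences were 0.05 for Sox4 and -0.00 for Neurod1.

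Neither tubulin-related gene passed. Tubb2b was at 2653, 4033, 2415, 2456 and 3192 with the antibody and at 2711, 3355, 2184, 2404 and 2439 with IgG2b. The difference was 0.16 (SE 0.15, interval -0.17 to 0.49, limma adjusted p = 0.808), and 0.04 without antibody replicate 2, which held the highest value. Stmn1 was at 4181, 5031, 3999, 3576 and 6974 against 6961, 4635, 4729, 3686 and 4416, a difference of -0.05 (SE 0.19, limma adjusted p = 0.963). A single high library in each group (antibody replicate 5 and IgG2b replicate 1) set the upper end of Stmn1. Draxin, with 22 reads in all antibody libraries and 27 in all IgG2b libraries, was at 2.40, 2.23, 6.17, 7.82 and 4.90 against 4.32, 3.72, 4.34, 4.19 and 8.59, and was not tested by limma.

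Igfbpl1 was close to the detection floor of 3 reads in aged mice except in 1 library. It was at 11.98, 13.4, 4.11, 91.6 and 2.94 normalized counts with the antibody and at 3.45, 4.65, 6.08, 3.35 and 7.51 with IgG2b, the lowest libraries resting on 3 and 4 reads. Antibody replicate 4 was far above all others, and replicates 1 and 2 also lay above the IgG2b range. The log2 difference of 1.14 (SE 0.71, interval -0.37 to 2.66, limma adjusted p = 0.689) was 0.43 (limma adjusted p = 0.804) when that library was left out and the filter on low means lifted. The authors' deposited table gives a log2 value of 2.31 with an adjusted p of 0.148 for this gene, over all 10 libraries.

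Aged T replicates 2 and 5 and antibody replicate 4, the libraries with most Igfbpl1, were also high in some genes outside the set. Zic1, a transcription factor of septal, cerebellar and olfactory lineages, was the gene whose within-group deviations correlated most with those of Igfbpl1 in both experiments (r = 0.80 and 0.83 over 11 and 10 libraries, 13864 genes compared). It was at 165, 1516, 102, 82.1 and 426 in aged T recipients and between 119 and 330 in young T recipients. With the antibody it was at 91.0, 165, 143, 656 and 49, and with IgG2b between 57.3 and 204. Sp8, a factor of interneuron neuroblasts from the ventricular wall, was at 15.1, 223, 21.4, 23.3 and 57.1 in aged T recipients and at 18.0, 13.4, 10.3, 116 and 20.6 with the antibody. The other groups lay between 9.44 and 39.7. Aged T replicates 2 and 5 and antibody replicate 4 thus had the highest Igfbpl1, Zic1 and Sp8 of their groups. Aged T replicate 1 and antibody replicates 1 and 2 were also above every control library in Igfbpl1. They did not exceed the control ranges of Zic1 or Sp8. Zic1 and Sp8 were picked after these values were seen. Without aged T replicates 2 and 5, the Igfbpl1 difference in the transfer was 0.37 (limma adjusted p = 0.958). This alternative was added after the data were seen, and since those libraries also hold the 2 highest Igfbpl1 values of their group, leaving them out had to lower the difference. With any 1 library left out the difference lay between 0.72 (without aged T replicate 2) and 1.32.

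**Figure D3:**
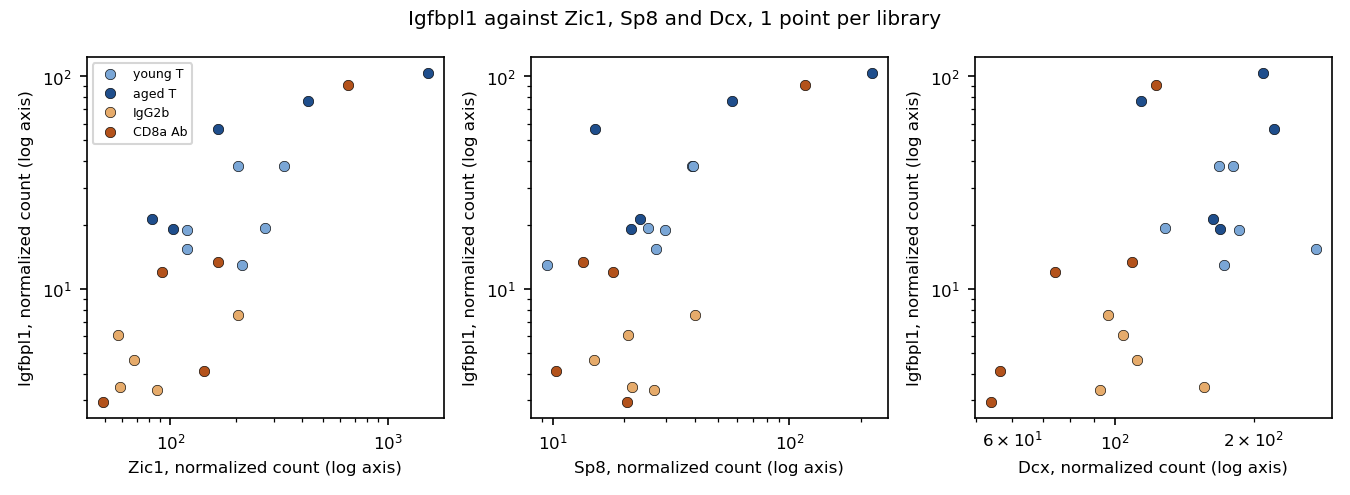
Igfbpl1 (y axis, normalized counts, log axis) against Zic1, Sp8 and Dcx (x axes, normalized counts, log axes), 1 point per library, coloured by group. The 3 libraries with the highest Igfbpl1 (103, 91.6 and 77.0) are also the 3 with the highest Zic1 (1516, 656 and 426) and Sp8 (223, 116 and 57.1), while their Dcx (209, 123 and 114) is not set apart. Zic1 and Sp8 were picked after these values were seen.

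Markers of neighbouring cell types were read across the same libraries. Of 10 markers of subventricular and olfactory neuroblasts, 9 were tested, and 7 were higher and 2 lower in aged T recipients (median log2 difference 0.25). Their summed level ran from 1741 to 3331 in aged T and from 1853 to 2297 in young T recipients, and the highest value was that of aged T replicate 2. In the depletion, 2 were higher and 7 lower (median -0.13), with sums of 1501 to 2400 against 1684 to 2145 and the highest in antibody replicate 4. None of these 10 genes was without reads in either experiment. Dlx6, a homeobox gene of interneuron precursors, had the smallest p in the transfer (43.1 ± 27.2 against 22.7 ± 5.42, limma adjusted p = 0.600), followed by Sp9 (124 ± 86.2 against 79.1 ± 24.5). In the depletion these were Dlx2 (39.6 ± 8.16 against 51.9 ± 8.38) and Dlx6os1 (196 ± 46.4 against 229 ± 29.0), an antisense RNA of the Dlx6 locus whose reads may not have been separated from Dlx6. Of 10 ependymal markers, 8 of 9 tested were higher in the transfer (median 0.61) and 8 of 8 in the depletion (median 0.51), with none at 0 reads. Ependymal sums were 298 to 817 against 233 to 455 and 175 to 601 against 159 to 459, again with the highest value of each experiment in aged T replicate 2 and antibody replicate 4. Ccdc153, an ependymal gene, was at 132 ± 57.4 against 64.2 ± 33.9 in the transfer and 92.7 ± 51.4 against 42.1 ± 28.1 in the depletion. Neither difference passed (limma adjusted p = 0.600 and 0.464). The same held for Mia in the transfer (47.1 ± 25.5 against 18.6 ± 11.1, limma adjusted p = 0.600) and for Rarres2 in the depletion (57.8 ± 15.0 against 34.95 ± 8.27, limma adjusted p = 0.406).

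All 10 choroid plexus markers were higher on average in both experiments (medians 0.32 and 0.59), and none was at 0 reads or had an unadjusted p under 0.05. Their sums in aged T replicates 1 to 5 were 74046, 34658, 6166, 5290 and 66462, so that replicates 1, 2 and 5, which stood above every young T library in Igfbpl1, were also highest here. Young T recipients ran from 6880 to 51833, up to a level above that of aged T replicate 2. In the depletion the sums were 27780, 36681, 45069, 5641 and 2433 with the antibody and 4150 to 37998 with IgG2b, and antibody replicate 4, highest in Igfbpl1, was the second lowest of its group. With the choroid plexus level as a covariate the Igfbpl1 difference was 0.91 in the transfer (limma adjusted p = 0.708) and 1.21 in the depletion (limma adjusted p = 0.573). The part of ependymal, other ventricular or septal tissue in the Igfbpl1 values was not tested.

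Levels between genes were compared per kilobase of the longest transcript, as mean CPM, the reads of a gene scaled to the library total. In IgG2b mice, Stmn1 was highest at 387 CPM per kb and Tubb2b followed at 101. Next came Dpysl3 (9.75), Neurod1 (8.39), Sox4 (2.83), Sox11 (1.52) and Dcx (1.04), and Igfbpl1 (0.147) and Draxin (0.0812) were lowest. The whole order was the same in young T recipients, from Stmn1 (282) through Tubb2b (110), Dpysl3 (11.02) and Neurod1 (10.05) to Sox4 (3.76). Sox11 (2.03) and Dcx (1.49) came next there, then Igfbpl1 (0.609) and Draxin (0.169). Neighbours in this order whose libraries overlapped were Dpysl3 with Neurod1 and Sox11 with Dcx in both groups, and Igfbpl1 with Draxin in IgG2b mice. These orders are descriptions, with no test, and the part of other cell types in these levels was not tested. The tables were normalized separately and differ in the age of the mice, so levels in them stand side by side and were not compared. For Dcx they were 12.9 ± 3.34 and 13.6 ± 3.46 CPM in aged T and young T recipients at 4 months, and 7.01 ± 2.62 and 9.44 ± 2.20 CPM with the antibody and IgG2b at 22 to 24 months.

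Whether the genes vary together between libraries was examined from the deviations of each library from its group mean, on the log2 scale. Over 36 pairs of members, 21 correlations were positive in the transfer (median 0.04, from -0.68 to 0.60) and 18 in the depletion (median 0.03, from -0.87 to 0.73). Positive and negative correlations were thus about equally common among the 9 genes. In the depletion, Dcx varied with Sox11 (r = 0.71, Spearman rho = 0.72), Igfbpl1 (0.72, rho = 0.64) and Sox4 (0.64, rho = 0.43). The exact permutation p values of r, with permutation within groups, were 0.0809, 0.0609 and 0.126, and each was 0.505 after Benjamini-Hochberg adjustment over 16 relations. Without the 2 libraries whose Dcx lay farthest from its median, antibody replicates 3 and 5, r was 0.56, 0.33 and 0.13, in a narrower range of Dcx. With any 1 library left out, r lay between 0.60 and 0.80 for Sox11, 0.52 and 0.87 for Igfbpl1 and 0.49 and 0.79 for Sox4. In the transfer the same 3 correlations were 0.00, -0.05 and -0.42. There Dcx varied most with Dpysl3 (r = 0.53, rho = 0.50, exact permutation p = 0.120, adjusted p = 0.505), and r was 0.00 without aged T replicate 5 and young T replicate 6. The correlation of Neurod1 with Stmn1 was negative in both experiments (-0.68 over 11 libraries and -0.87 over 10), the lowest of the 36 pairs in each. That pair was singled out after its values were seen and has no test.

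**Figure D4:**
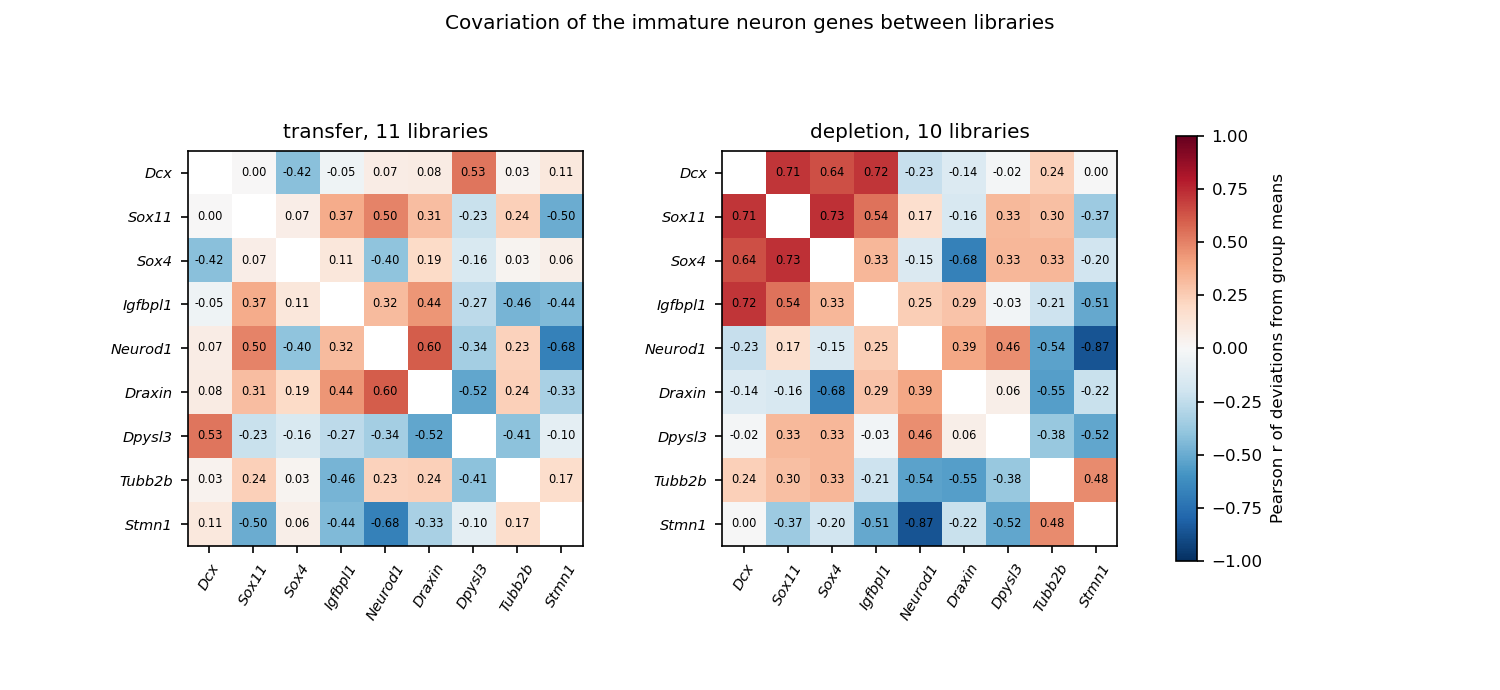
Pearson correlations of the 9 genes with each other (rows and columns; colour and number give r of deviations from group means on the log2 scale), in the transfer (11 libraries) and the depletion (10 libraries). The 6 pairs among Dcx, Sox11, Sox4 and Igfbpl1 run from 0.33 to 0.73 in the depletion and from -0.42 to 0.37 in the transfer. That group of genes was picked after its values were seen, and the difference was not tested. Neurod1 and Stmn1 are negative in both (-0.68 and -0.87).

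The 5 genes most like Dcx, by the smaller of the within-group correlations of both experiments over 13864 genes, were Dcaf12l1 (0.81 in the transfer and 0.85 in the depletion), Zfp275 (0.82 and 0.81), Pcdh11x (0.88 and 0.77), Atp2b4 (0.76 and 0.82) and Pank1 (0.80 and 0.76). Dcaf12l1, Zfp275 and Pcdh11x, 3 of the 5, lie on chromosome X like Dcx itself, against 3.51% of the genes compared (469 of 13371 with a known position). Chromosome was looked up after the genes were found. Pcdh11x, a protocadherin adhesion gene, was at 171, 236, 208, 149 and 84.2 in aged T recipients, lowest in the same library as Dcx. With the antibody it was at 68.3, 140, 81.2, 99.4 and 30.4.

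The other stages of the lineage were read from gene lists, and limma called 0 of their members in either experiment. Of 16 genes of radial glia-like stem cells, 15 were tested in each experiment, and 11 were higher and 4 lower in both the transfer (median 0.08) and the depletion (median 0.18). Over all genes tested, 6942 of 14162 were higher in the transfer and 6917 of 13939 in the depletion. In the depletion, beside 8.47% of all genes, 3 of the 15 stem cell genes had an unadjusted p under 0.05, all higher. They were the intermediate filament genes Vim (736 ± 118 against 499 ± 105, limma adjusted p = 0.300) and Nes (158 ± 43.8 against 96.1 ± 31.3, limma adjusted p = 0.425) and the lysophosphatidic acid receptor Lpar1 (log2 difference 0.56). Vim and Nes are also made by reactive astrocytes and vessel cells. Markers of those cells lay on the same side, with Gfap at 10539 ± 2368 against 6847 ± 661 (log2 difference 0.60) and 9 of 10 endothelial markers higher (median 0.22, summed level 1824 to 2670 against 1811 to 2004). Of 10 astrocyte markers 7 were higher (median 0.10, summed level 44305 to 107721 against 58490 to 66322), no marker of either list was at 0 reads, and their part in the Vim and Nes values was not tested. In the transfer, Sox1 was at 331 ± 144 against 256 ± 62.6 and Notch2 at 402 ± 77.5 against 481 ± 77.8.

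**Figure D5:**
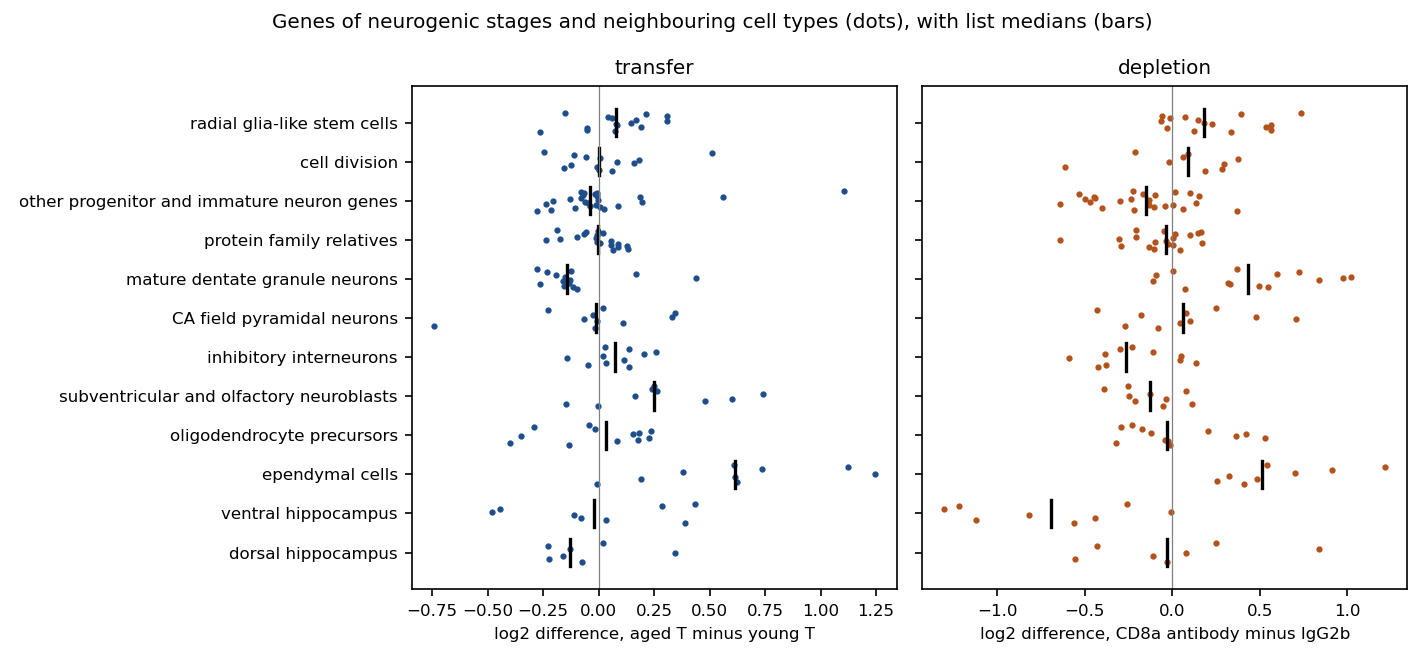
Log2 difference between groups (x axis) of each tested gene (dots) in lists of neurogenic stages and neighbouring cell types (y axis), with the list median as a black bar, for the transfer (left) and the depletion (right). Medians near 0 are seen for cell division genes (0.00 and 0.09), and those of other progenitor and immature neuron genes are -0.04 and -0.15. In the depletion, mature granule neuron genes lie at 0.43 and ventral hippocampus genes at -0.69.

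Several cell division genes were read little at this depth. Of 20 cell division genes, 13 had a mean of at least 10 in the transfer and 9 in the depletion, with medians of 0.00 and 0.09. Mki67, which marks cycling cells, had 271 reads over the 11 transfer libraries (21.9 ± 5.83 against 27.5 ± 12.1 normalized counts) and 73 over the 10 depletion libraries, too few there to be tested. Pcna, a replication clamp that non-dividing cells also express, was at 851 ± 69.1 against 750 ± 49.3 in the transfer (log2 difference 0.18, limma adjusted p = 0.600). Top2a, a topoisomerase of dividing cells, was at 26.1 ± 4.48 against 18.3 ± 4.93 there (0.51, limma adjusted p = 0.600). In the depletion the smallest p was that of Mcm6, a subunit of the replicative helicase, at 158 ± 34.9 against 127 ± 13.3 (0.30, limma adjusted p = 0.640). Rrm2, a ribonucleotide reductase subunit, lay on the other side and was at 11.3 ± 4.29 against 17.5 ± 6.44 in the depletion (limma adjusted p = 0.703).

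In the list of other progenitor and immature neuron genes, 18 of 25 were lower in the transfer (median -0.04) and 17 of 24 in the depletion (median -0.15). This list shares Prox1 with the mature granule neuron genes and Neurod6 with the CA field markers. It also shares several genes, such as Tubb3 and Stmn2, with the protein family relatives, so counts of these lists are not independent. Over all genes tested, 6942 of 14162 were higher in the transfer and 6917 of 13939 in the depletion. In the transfer an unadjusted p under 0.05 was reached by 8.25% of all genes tested and by 1 gene of the list. It was Cd24a, a surface protein of neuroblasts and ependymal cells (177 ± 41.1 against 120 ± 34.6, limma adjusted p = 0.600). Ncam1, a neural cell adhesion gene, followed at 2772 ± 372 against 3183 ± 299 (-0.21, limma adjusted p = 0.600). In the depletion an unadjusted p under 0.05 was reached by 8.47% of all genes tested and by 3 genes of the list, all lower. They were Dpysl5, a relative of Dpysl3 (190 ± 29.5 against 297 ± 44.3, log2 difference -0.64, limma adjusted p = 0.233), the RNA-binding protein gene Elavl2 (939 ± 109 against 1359 ± 169, -0.53, limma adjusted p = 0.221) and Nnat (-0.47, limma adjusted p = 0.577). Eomes, of intermediate progenitors, was at 19.9, 91.8, 5.63, 5.07 and 29.9 in aged T recipients and between 3.88 and 15.9 in young T recipients, highest in the 2 libraries with the highest Zic1. Calb2 (calretinin), of postmitotic immature granule neurons and of interneurons, was at 349 ± 175 against 489 ± 239 in the depletion (limma adjusted p = 0.796). Tubb3 (2706 ± 718 against 2880 ± 663, limma adjusted p = 0.911) and Stmn2 (4495 ± 903 against 4867 ± 275, limma adjusted p = 0.803) did not pass either.

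Of the genes related to the 9 by protein family, 9 of 19 were higher in the transfer and 8 of 19 were so in the depletion (medians -0.00 and -0.04). Tubb2a was at 8099 ± 1152 against 7779 ± 896 normalized counts in the transfer and at 7478 ± 2052 against 7445 ± 524 in the depletion. Dclk1, which encodes a doublecortin-like kinase, was at 8756 ± 1181 against 9976 ± 1215 and at 6658 ± 654 against 7730 ± 1335. Dpysl2 was at 1513 ± 218 against 1756 ± 305 and Dpysl4 at 355 ± 82.9 against 431 ± 33.8 in the depletion, on the same side as Dpysl3 and Dpysl5, and neither passed (limma adjusted p = 0.703 and 0.591). Crmp1, the remaining gene of that family, was at 2849 ± 624 against 2775 ± 182 there (0.01). In the transfer Dpysl5 was at 311 ± 61.9 against 364 ± 49 (-0.24, limma adjusted p = 0.621). Sox12, the third SoxC gene, was at 314 ± 20.4 against 319 ± 88.9 in the transfer and at 262 ± 44.8 against 235 ± 37.0 in the depletion. Among receptors and partners of draxin, 7 of 9 were lower in the transfer (median -0.11) and 6 of 9 in the depletion (median -0.17). Of all genes tested, 8.25% and 8.47% had an unadjusted p under 0.05 in the transfer and the depletion. The netrin receptors Unc5d (244 ± 67.0 against 376 ± 43.5, log2 difference -0.67, limma adjusted p = 0.320) and Unc5a (1383 ± 155 against 1693 ± 288, -0.28, limma adjusted p = 0.580) were the 2 at an unadjusted p under 0.05, both in the depletion. In the transfer the smallest p were those of the receptors Dcc (433 ± 67.0 against 530 ± 136, limma adjusted p = 0.656) and Unc5c (714 ± 123 against 841 ± 183, limma adjusted p = 0.659).

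Factors of the neurogenic niche did not pass in either experiment. Reln, the secreted positional cue of Cajal-Retzius cells and interneurons, was at 572 ± 108 against 753 ± 124 in the transfer (log2 difference -0.40, limma adjusted p = 0.600) and at 349 ± 72.5 against 507 ± 104 in the depletion (-0.54, limma adjusted p = 0.331). B2m, the MHC class I light chain that is known to reduce neurogenesis when raised in blood, was at 970 ± 173 against 1026 ± 182 in the transfer and at 1383 ± 30.9 against 976 ± 107 in the depletion (0.51, limma adjusted p = 0.148). Nog, a BMP antagonist, was at 112 ± 22.8 against 86.2 ± 24.4 in the transfer and at 78.8 ± 21.7 against 107 ± 10.7 in the depletion. Ccl11 (eotaxin) had 2 and 8 reads in the 2 experiments in all, and Dkk1 had 0 reads in the depletion.

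Mature granule neuron genes stood on opposite sides in the 2 experiments. In the transfer 2 of 14 were higher and 12 lower (median -0.14), and in the depletion 12 of 14 were higher (median 0.43), 7 of them with an unadjusted p under 0.05, beside 8.47% of all genes. The difference between the experiments was not tested. Plk5 was at 225 ± 40.4 against 121 ± 62.9 (log2 difference 1.02, limma adjusted p = 0.323) and Tdo2 at 75.9 ± 18.6 against 42.0 ± 19.8 (0.98, limma adjusted p = 0.444) in the depletion. In the transfer, Trpc6 was at 258 ± 78.6 against 303 ± 59.6 and Tdo2 at 101 ± 37.7 against 77.5 ± 34.3 (limma adjusted p = 0.681 and 0.708). Prox1, the granule cell identity factor, was in the depletion at 373 ± 140 against 269 ± 42.4 (limma adjusted p = 0.732). Summed levels of the list were 13935 to 19889 with the antibody and 13240 to 16359 with IgG2b. In the same libraries, 8 of 8 ventral hippocampus markers were lower (median -0.69), with sums of 1102 to 2068 against 2466 to 2976 that did not overlap, and none of them was at 0 reads. With the difference between ventral and dorsal marker levels as a covariate, the depletion difference was -0.48 for Dcx, -0.41 for Dpysl3, -0.19 for Sox11, -0.09 for Sox4, -0.44 for Neurod1, 0.73 for Igfbpl1 (limma adjusted p = 0.834), 0.51 for Tubb2b and 0.25 for Stmn1. limma called 0 of the 8 members in that fit (smallest adjusted p of the 8 0.402, for Tubb2b). That covariate did not overlap between the groups, so position and treatment cannot be told apart. The differences adjusted for it therefore rest on extrapolation. Among other lists in the depletion, 10 of 10 microglia markers were higher (median 0.36), 7 with an unadjusted limma p under 0.05. Of 10 interneuron markers, 3 were higher and 7 lower (median -0.27), 3 of the lower at that level. In the transfer, 8 of 10 were higher in each of these lists, with 0 at that level. limma called 0 genes of either list, and both were picked after their values were seen.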

How the data were processed

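The authors deposited 1 table per experiment, with 24411 genes by symbol, and replicates were numbered in the order of the sample records. Per the file headers, the library columns are normalized counts. As signal values they were whole multiples of 1 step per library (relative tolerance 1e-06), so each was deposited as the authors' read count divided by a size factor, and whole reads were recovered. The authors' deposited tables also hold a log2 fold change, its error and statistic (scores) and p-values from their own comparison, signed there as control over treated and turned here. The submitters' processing notes name STAR, RSEM, DESeq2 and mm10, without versions or roles.

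Here, limma-trend (limma 3.58.1, R 4.3.3) was fitted to log2(normalized count + 1) of all genes with a mean of at least 10, each experiment alone. Benjamini-Hochberg adjustment ran over all genes tested, with calls at an adjusted p under 0.05. Alternatives were edgeR 4.0.16 (quasi-likelihood), DESeq2 1.42.0, voom, TMM scaling, pseudocounts of 0.5 and 5, no filter, 2 marker covariates, a length trend and leaving out libraries. Exact permutation tests are two-sided. Scripts were tested on simulated data. Transcripts and gene positions are from GENCODE M21, and the longest transcript gave lengths for 95.8% of genes. From the lists of the lineage, its relatives and niche, and from neuroblast and ependymal markers, the 2 genes with the smallest p in each experiment were named, with a short fixed set. Among the other lists, those of choroid plexus, endothelial, astrocyte, microglia, interneuron and ventral hippocampus markers are given by counts. The text gives no counts for markers of CA fields, oligodendrocyte precursors, Cajal-Retzius cells, striatum, thalamus and habenula, or dorsal hippocampus. Other genes named were chosen after their values were seen. The 9 genes and all lists were chosen with earlier results of these data known.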

Additional observations from a re-analysis of the deposited data

Results flagged for a closer look

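In 36 groups of single-gene values, Dixon's criterion (95% level, which chance passes in about 1 in 20 groups) set 3 libraries apart from the rest of their group. Tubb2b was at 4109 normalized counts in young T replicate 3, while the other 5 young T libraries lay between 2926 and 3354. Igfbpl1 was at 91.6 in CD8a antibody replicate 4, against 2.94 to 13.4 in the other 4 antibody libraries. Draxin was at 8.59 in IgG2b replicate 5, against 3.72 to 4.34 in the other 4, all values of few reads.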

How the results depend on the processing

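No alternative brought any of the 9 genes past the threshold in either experiment. Outside single left-out libraries, 175 of 179 refits of a member kept the sign of its difference. Subtracting the length trend turned Dcx to 0.080 and Sox4 to 0.038 in the transfer, the ventral minus dorsal covariate turned Stmn1 to 0.25 in the depletion, and leaving out aged T replicates 2 and 5 turned Dcx to 0.022. Leaving out 1 library gave -0.17 to 0.071 for Dcx, -0.069 to 0.046 for Sox4 and -0.017 to 0.54 for Draxin in the transfer, and -0.18 to 0.053 for Sox4 and -0.20 to 0.087 for Stmn1 in the depletion. The cause was not tested. The ventral minus dorsal covariate did not overlap between the groups of the depletion, so refits with it there rest on extrapolation. The number of genes called in the depletion, 1 in all, was 92 with DESeq2, 3 with the choroid plexus covariate, 0 without the filter and 0 with the ventral minus dorsal covariate. It was 0 to 25 without 1 library, 25 without CD8a antibody replicate 5.

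Correlations with Dcx near 0 changed sign often. In the transfer they ran, without 1 library, from -0.20 to 0.27 for Sox11, -0.24 to 0.20 for Igfbpl1, -0.29 to 0.24 for Neurod1, -0.20 to 0.24 for Draxin, -0.13 to 0.27 for Tubb2b and -0.42 to 0.28 for Stmn1. In the depletion they ran from -0.66 to 0.11 for Draxin, -0.37 to 0.25 for Dpysl3, -0.075 to 0.57 for Tubb2b and -0.39 to 0.49 for Stmn1. Without the 2 libraries farthest in Dcx, r was 0.56 for Igfbpl1 and -0.53 for Stmn1 in the transfer, and 0.22 for Draxin and 0.58 for Stmn1 in the depletion. Spearman's rho was 0.027 for Igfbpl1 and -0.10 for Stmn1 in the transfer, and 0.079 for Dpysl3 and 0.067 for Stmn1 in the depletion. With a pseudocount of 5, r was -0.0014 for Sox11 in the transfer and 0.0027 for Stmn1 in the depletion. No paired analysis was possible because replicate numbers come from the order of the records and pair no samples. With 5 or 6 libraries a group, the 95% interval of Dcx spans differences down to -0.99 in the depletion. Igfbpl1 in the depletion could not be refitted without CD8a antibody replicate 4 unless the filter was lifted.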
